A study of Mus musculus and Homo sapiens with 16 samples.

Results

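The 50 genes described here carry out or restrain the cell division cycle, and they were chosen as a list of gene names. They comprise 2 D cyclins, 6 cyclins, kinases and E2F or MYB regulators of the G1/S step, 11 genes of origin licensing and firing, 5 genes of nucleotide supply and the replication fork, 23 genes of G2 and mitosis, and 3 inhibitors of cyclin-dependent kinases. All 50 were found among the 39179 genes of the count files, and all 50 passed the low-count filter of every comparison.

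The series studied KLF5, a zinc-finger transcription factor, in the skin of C57BL/6 mice, with a title on sphingolipid metabolism and the barrier. The E17.5 RNA set held 3 libraries labelled Klf5-/- and 3 libraries labelled Klf5+/-. Their cells came from epidermis peeled off E17.5 embryos and were sorted for integrin A6, a protein of the basal layer, without DAPI or CD45 staining. The other set, titled HFD, held 2 libraries labelled Klf5-/- and 2 labelled Klf5+/- of peeled epidermis that was ground without sorting. The labels do not expand the letters HFD and give no age for these samples. Both control groups carry 1 disrupted Klf5 copy, and the sources used here do not name the driver of the deletion. KLF5 and H3K27ac ChIP-seq and ATAC-seq, which reads open chromatin, came from wild-type E17.5 epithelium sorted in the same way, with 1 sample for each. The ATAC library is titled Het but has wild type as its genotype.

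Total counts on genes lay between 34486898 and 46445546 in the E17.5 libraries and between 31819010 and 44336888 in the HFD libraries. Klf5 RNA itself stood no lower under the Klf5-/- label, and it stood higher there in the HFD set. Among E17.5 libraries it had 6934, 7211 and 6501 counts in libraries labelled Klf5-/-, against 8376, 6609 and 6624 counts in Klf5+/- libraries. In the HFD set it had 2953 and 4956 counts in the libraries labelled Klf5-/-, against 2523 and 1575 counts in Klf5+/- libraries. Its log2 fold change in that set was 1.06 (SE 0.23, edgeR adjusted p = 0.0533). The effect in the HFD set minus that at E17.5 was 1.06 (edgeR adjusted p = 0.0159). The sources used here do not name the deleted stretch, so these counts do not check the labels, on which each direction below rests. In both sets the basal keratins Krt5 and Krt14 were high in every library, and so were Krt1 and Krt10 of the suprabasal layers. The suprabasal markers described below summed higher than the basal markers in every E17.5 library. Ptprc, which encodes the CD45 used in the sort, stood between 4.81 and 11.6 CPM (counts scaled to library size by TMM within a set) in the E17.5 libraries.

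As background, D cyclins and their kinases inactivate the retinoblastoma proteins, which frees E2F factors to switch on cyclin E and the genes of DNA replication. CDC6 and CDT1 then load the MCM helicase on origins, geminin blocks reloading, and CDC45 with the GINS complex starts the fork. Cyclin A, cyclin B, CDK1, FOXM1 and the kinesins and kinases of the spindle follow in G2 and mitosis. The CIP/KIP proteins p21, p27 and p57, encoded by Cdkn1a, Cdkn1b and Cdkn1c, bind cyclin-CDK complexes and hold cells back. In the epidermis cells divide mainly in the basal layer and leave the cycle as they move up and differentiate.

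At the gene starts, KLF5 peaks were present at a minority of the 50 genes, while nearly all lay in open chromatin. A KLF5 peak lay within 5 kb of the start of 20 genes (40%), against 22.9% of the 15092 genes tested at E17.5. Weighted to the same deciles of the mean level in Klf5+/- libraries, the share over all genes was 33.0%. An H3K27ac peak, a mark of active promoters and enhancers, lay near 40 genes (80%), against 63.5% of all genes and 86.1% at matched levels. An ATAC peak lay near 49 genes (98%), against 84.4% of all genes and 96.4% at matched levels. These are shares from 1 peak list each, with no test, and the plot of peak shares sets them side by side.

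**Figure D1:**
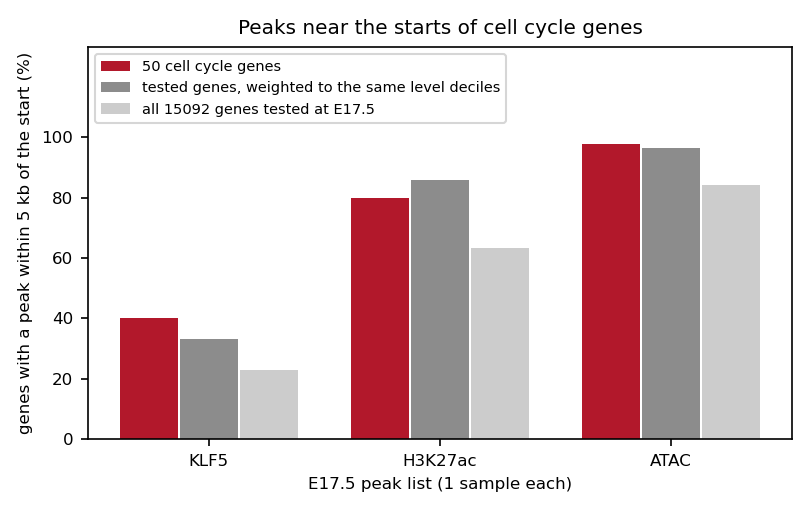
Share of genes with a peak within 5 kb of the gene start, as a percentage on the y axis, for the KLF5, H3K27ac and ATAC peak lists on the x axis (1 sample each). Red bars are the 50 cell cycle genes, dark grey bars the tested genes weighted to the same level deciles, and light grey bars all 15092 tested genes; the KLF5 bars stand at 40%, 33.0% and 22.9%.

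By role, KLF5 peaks lay near 1 of the 2 D cyclins (Ccnd2), 1 of 6 G1/S regulators (E2f1), 5 of 11 licensing and firing genes (Mcm2, Mcm4, Mcm6, Cdt1 and Gins1) and 3 of 5 nucleotide and fork genes (Pcna, Rrm1 and Tk1). They lay near 8 of 23 G2/M genes (Mki67, Ccna2, Cdk1, Birc5, Kif11, Kif23, Cenpf and Ube2c) and near 2 of 3 inhibitors (Cdkn1a and Cdkn1c). Neither D cyclin had an H3K27ac peak in the window, nor did Cdc6, Rrm2, Tyms, Bub1, Bub1b, Plk1, Cenpf and Cdkn1c, and Ccnd2 alone lacked an ATAC peak. At a deposited −log10 q of at least 10, by the authors' own list, peaks lay near Birc5 and Rrm1 only, 4% of the 50 genes, against 4.03% of all genes tested and 6.48% at matched levels.

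The peak at Birc5, which encodes the mitotic protein survivin, had a −log10 q of 14.9 and a fold enrichment of 5.81, rank 406 of 6472 in the list. The one at Rrm1, the large subunit of ribonucleotide reductase, had a −log10 q of 10.35 and rank 1013. At Cdkn1a the peak (mm10, chr17:29093550-29093969, −log10 q 8.23) had its summit 2716 bp after the gene start of the count files, and 74 bp before the start that RefSeq gives, at position 29093769. The gene itself lies at chr17:29090979-29100722 on the plus strand. Cdkn1c (chr7:143458350-143461050, minus strand) had a summit 75 bp before its start, with a −log10 q of 5.99. Ccna2 (chr3:36564866-36572150, minus strand) had one 31 bp before its start, with a −log10 q of 5.24.

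Promoter sequences from RefSeq (GRCm38.p6, the same coordinates as mm10) show what lies under these summits. Each line below holds the 250 bases before a RefSeq start, on the strand of the gene, and each window contains the KLF5 summit. Birc5 and Rrm1 are shown for the strongest peaks, Cdkn1a as an inhibitor with a peak, and Ube2c and Cdk1 as G2/M genes. Capitals mark, on either strand, 5 kinds of motif. The CCAAT box, the element bound by NF-Y, was searched as CCAAT. The CHR-type motif, of the cell cycle genes homology region, was searched as TTTGAA and also as TTTAAA. The E2F-type motif was searched as TTTNNCGC, the GC box as GGGCGG, and the CACCC box as GGGTGG. The windows are chr11:117848987-117849236 (plus) for Birc5, chr7:102441445-102441694 (plus) for Rrm1, chr17:29093519-29093768 (plus) for Cdkn1a, chr2:164769679-164769928 (plus) for Ube2c and chr10:69352913-69353162 (minus) for Cdk1.
Birc5: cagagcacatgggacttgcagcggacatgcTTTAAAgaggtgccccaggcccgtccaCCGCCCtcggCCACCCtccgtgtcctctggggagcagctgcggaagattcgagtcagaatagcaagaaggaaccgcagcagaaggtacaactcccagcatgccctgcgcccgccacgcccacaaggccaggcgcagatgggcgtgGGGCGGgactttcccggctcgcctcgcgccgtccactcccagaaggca
Rrm1: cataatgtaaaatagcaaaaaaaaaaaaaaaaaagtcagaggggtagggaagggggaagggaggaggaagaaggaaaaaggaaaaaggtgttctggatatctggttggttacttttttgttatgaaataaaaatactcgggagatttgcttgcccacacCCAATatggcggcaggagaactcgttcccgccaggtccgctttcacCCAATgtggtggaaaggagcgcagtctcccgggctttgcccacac
Cdkn1a: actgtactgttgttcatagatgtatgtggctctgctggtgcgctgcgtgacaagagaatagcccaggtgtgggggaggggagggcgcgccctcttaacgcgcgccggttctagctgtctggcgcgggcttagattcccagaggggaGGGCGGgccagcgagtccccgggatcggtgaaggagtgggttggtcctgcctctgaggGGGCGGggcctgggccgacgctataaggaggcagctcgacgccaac
Ube2c: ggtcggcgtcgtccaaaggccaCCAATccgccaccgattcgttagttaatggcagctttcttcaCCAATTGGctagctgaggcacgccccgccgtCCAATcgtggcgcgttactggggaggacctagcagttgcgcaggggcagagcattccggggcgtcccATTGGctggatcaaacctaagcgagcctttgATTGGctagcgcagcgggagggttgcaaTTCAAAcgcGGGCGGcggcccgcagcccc
Cdk1: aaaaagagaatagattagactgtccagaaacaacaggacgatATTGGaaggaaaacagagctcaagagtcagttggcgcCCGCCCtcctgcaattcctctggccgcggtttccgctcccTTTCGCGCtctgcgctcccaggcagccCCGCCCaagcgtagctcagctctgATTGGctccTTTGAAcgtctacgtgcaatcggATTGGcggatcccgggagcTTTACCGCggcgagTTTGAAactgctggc
Cdk1 held motifs of 4 kinds, CCAAT, CHR-type, E2F-type and GC box. Ube2c held 6 CCAAT matches, of which a pair on opposite strands overlap. The Rrm1 window held 2 CCAAT matches and no match to the letters searched for the GC or CACCC box. The shorter letters CACCC, which were not searched, overlap both of its CCAAT matches. A match says only that these letters are present.

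Over the 37 of the 50 genes with a RefSeq promoter in the table (250 bases before to 50 after the start), CCAAT was present in 28 (75.7%), against 37% of 13299 promoters of genes tested at E17.5 and 37.4% of all 32851 promoters. CHR-type letters were present in 24 (64.9%, against 19.3% of tested and 27.6% of all) and E2F-type letters in 9 (24.3%, against 7.92% and 5.17%). The counts differed by phase. CCAAT occurred in 16 of 17 G2/M promoters, all but Birc5, and in 11 of 18 promoters of the G1/S and replication genes. CHR-type letters occurred in 16 of 17 G2/M promoters, all but Bub1, and in 7 of 18 of the others. E2F-type letters occurred in 1 of 17 G2/M promoters, that of Cdk1, and in 8 of 18 G1/S and replication promoters, among them Mcm3, Mcm5, Mcm6 and Mcm7. The GC box was present in 32 of 37 promoters (86.5%, against 60.8% and 35.7%). GGGTGG, the letters searched for the CACCC box of KLF sites, was present in 15 (40.5%, against 37.3% and 31.5%).

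In the E17.5 epithelium almost all of the 50 genes stood slightly higher in the libraries labelled Klf5-/- than in Klf5+/- libraries, and the inhibitor Cdkn1a stood lower. The log2 fold change was above 0 in 48 of 50 genes, with a median of 0.19, where 52.7% of all genes were above 0 and their median was 0.01. None of the 50 passed edgeR's quasi-likelihood test at an adjusted p of 0.05, as 0.0861% of all 15092 genes did (0.0331% higher and 0.053% lower). On library totals in place of TMM scaling, 4 genes were higher and 2 lower over all genes, in place of 5 and 8. At an unadjusted p under 0.05, 13 were higher (3.78% of all genes) and 2 were lower (6.24% of all genes). DESeq2 called 2 members, Cdkn1c higher (adjusted p = 0.00148) and Cdkn1a lower (adjusted p = 0.0126), where it called 3.05% of all genes, 0.828% higher and 2.23% lower. These p-values measure the spread between libraries, which may be technical, since nothing in the labels says that they came from separate animals. In bulk RNA, a different number of dividing cells and a different amount of these RNAs in each cell cannot be told apart.

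**Figure D2:**
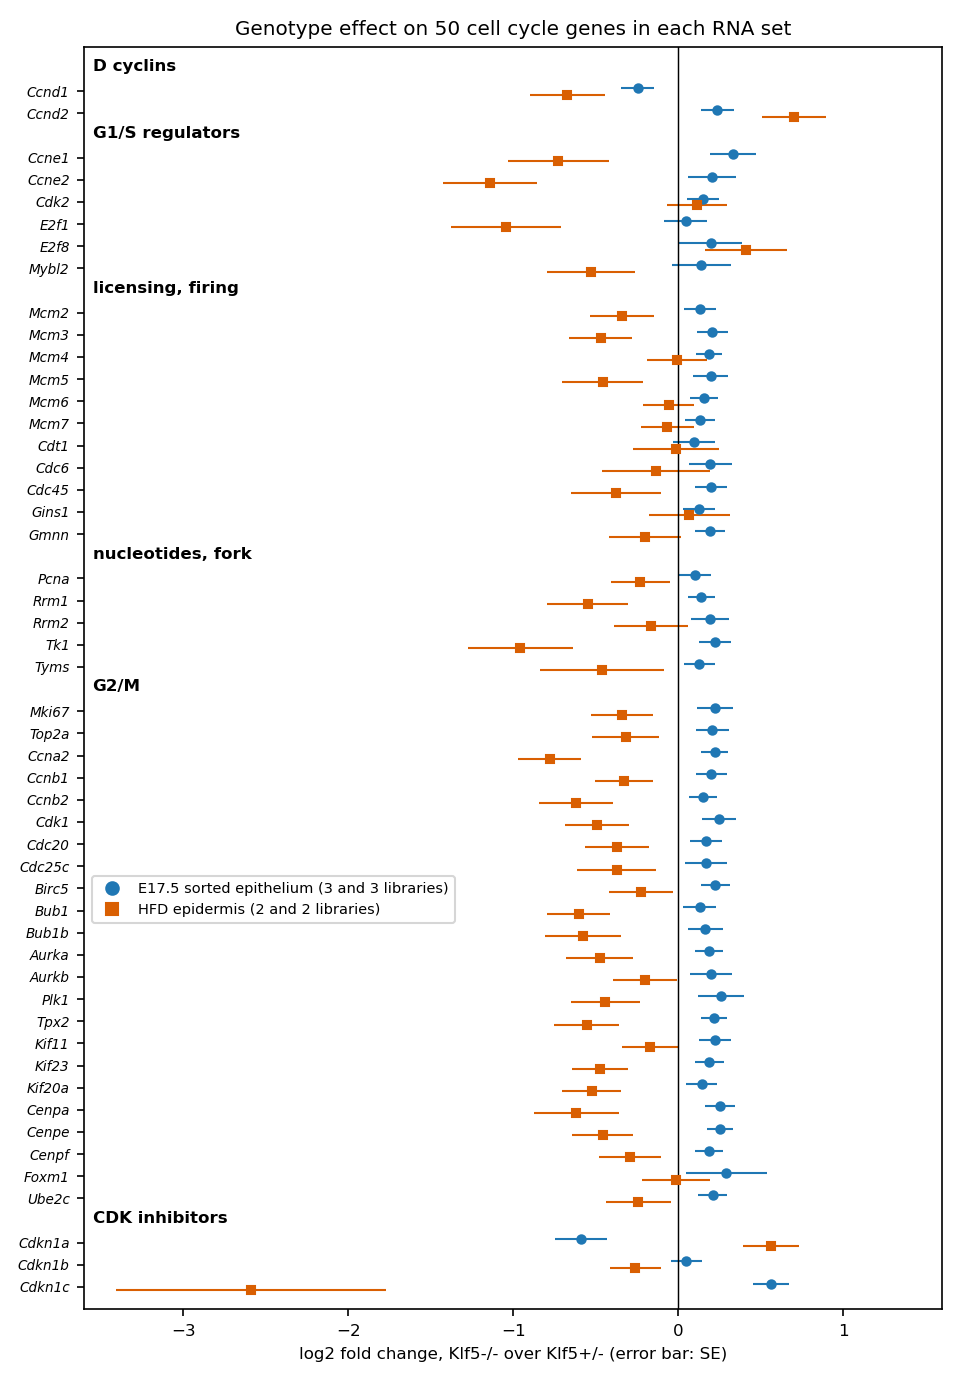
Log2 fold change of libraries labelled Klf5-/- over Klf5+/- libraries on the x axis (bars, SE) for each of the 50 genes, grouped by role down the page; circles are E17.5 (3 libraries each) and squares HFD (2 libraries each). At E17.5, 48 of 50 genes lie above 0, in HFD 45 of 50 lie below 0, and Cdkn1a, at −0.59 and 0.56, and Cdkn1c, at 0.56 and −2.59, take opposite sides.

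G1/S and G2/M genes stood on the same side at E17.5. All 22 G1/S and replication genes were above 0, with a median of 0.17 and a range of 0.05 to 0.33. All 23 G2/M genes were above 0 as well, with a median of 0.21 and a range of 0.13 to 0.29. Libraries labelled Klf5-/- lay wholly above Klf5+/- libraries for 18 of the 50 genes, where 6.63% of all genes did, and wholly below for 2, Ccnd1 and Cdkn1a, where 8.18% did. Of the 18, 5 were G1/S and replication genes (Mcm4, Mcm6, Cdc45, Gmnn and Rrm1) and 11 were G2/M genes.

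Among the D cyclins, Ccnd1, which links mitogen signals to the cycle, had 83.5, 84.5 and 83.8 CPM in E17.5 libraries labelled Klf5-/-, against 115, 94.1 and 89.4 CPM in Klf5+/- libraries. The groups did not overlap, although 1 Klf5+/- library stood apart on the high side (log2 fold change −0.25, SE 0.10, edgeR adjusted p = 0.439). Ccnd2 had 718, 800.2 and 684 CPM in libraries labelled Klf5-/-, against 637, 583 and 647 CPM in Klf5+/- libraries, with no overlap. Per kilobase of exon it was, at 129 against 109 CPM per kb, second to Pcna among the 50 genes at E17.5 (fold change 0.24 on the log2 scale, SE 0.10, edgeR adjusted p = 0.440).

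Among the G1/S regulators the largest E17.5 difference was in Ccne1, 1 of the 2 cyclin E genes that activate CDK2. It had 27.3, 32.2 and 21.8 CPM in libraries labelled Klf5-/-, against 21.96, 20.5 and 22.2 CPM in Klf5+/- libraries. The third library labelled Klf5-/- fell among the Klf5+/- values (log2 fold change 0.33, SE 0.14, edgeR adjusted p = 0.445). Of the licensing genes Mcm3, a helicase subunit, had the largest difference, with 157, 155 and 141 CPM in libraries labelled Klf5-/-, against 146, 124 and 122 CPM in Klf5+/- libraries (0.21, SE 0.09, edgeR adjusted p = 0.502). The groups overlapped by 1 library. Tk1, the thymidine salvage kinase, had 81.5, 82.3 and 67.6 CPM in libraries labelled Klf5-/-, against 68.4, 65.1 and 64.7 CPM in Klf5+/- libraries (0.22, SE 0.10, edgeR adjusted p = 0.463). Here too the third library labelled Klf5-/- was the lowest of its group.

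Among the G2/M genes Foxm1, a transcription factor of mitotic genes, had the largest E17.5 value and also the widest spread. It had 78.1, 88.4 and 49.95 CPM in libraries labelled Klf5-/-, against 74.2, 57.1 and 45.5 CPM in Klf5+/- libraries (edgeR log2 fold change 0.29, SE 0.25, adjusted p = 0.825). Cenpe, a kinetochore motor, had a tighter difference with no overlap, averaging 115 ± 4.66 CPM in libraries labelled Klf5-/- and 96.8 ± 5.91 CPM in Klf5+/- libraries (SD, n = 3 each; edgeR adjusted p = 0.257). The proliferation antigen gene Mki67 had 585, 608 and 476 CPM in libraries labelled Klf5-/-, against 492, 454 and 483 CPM in Klf5+/- libraries. The third library labelled Klf5-/- lay inside the Klf5+/- range. Cdk1, the mitotic kinase, stood at 0.25 (SE 0.10) and cyclin A2, Ccna2, at 0.22 (SE 0.08), with 119, 109 and 103 CPM in libraries labelled Klf5-/- all above the 94.3, 95.4 and 94.8 CPM of Klf5+/- libraries.

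The inhibitors parted ways at E17.5. Cdkn1a had 104, 99.1 and 152 CPM in libraries labelled Klf5-/-, against 178, 190.1 and 165 CPM in Klf5+/- libraries. Every library labelled Klf5-/- was lower, the third least so (log2 fold change −0.59, SE 0.16, edgeR adjusted p = 0.179). Cdkn1c had 47.7, 48.8 and 43.1 CPM in libraries labelled Klf5-/-, against 27.4, 34.5 and 32.6 CPM in Klf5+/- libraries, again with no overlap (0.56, SE 0.11, edgeR adjusted p = 0.0868). Cdkn1b averaged 63.6 ± 2.88 CPM in libraries labelled Klf5-/- and 61.5 ± 5.76 CPM in Klf5+/- libraries (SD, n = 3 each), and its groups overlapped (0.05, SE 0.09). Without the third library labelled Klf5-/-, edgeR called Cdkn1a (−0.81, adjusted p = 0.00128) and Cdkn1c (0.62, adjusted p = 0.0153), where 3.31% of all genes were called (0.839% higher and 2.47% lower).

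**Figure D3:**
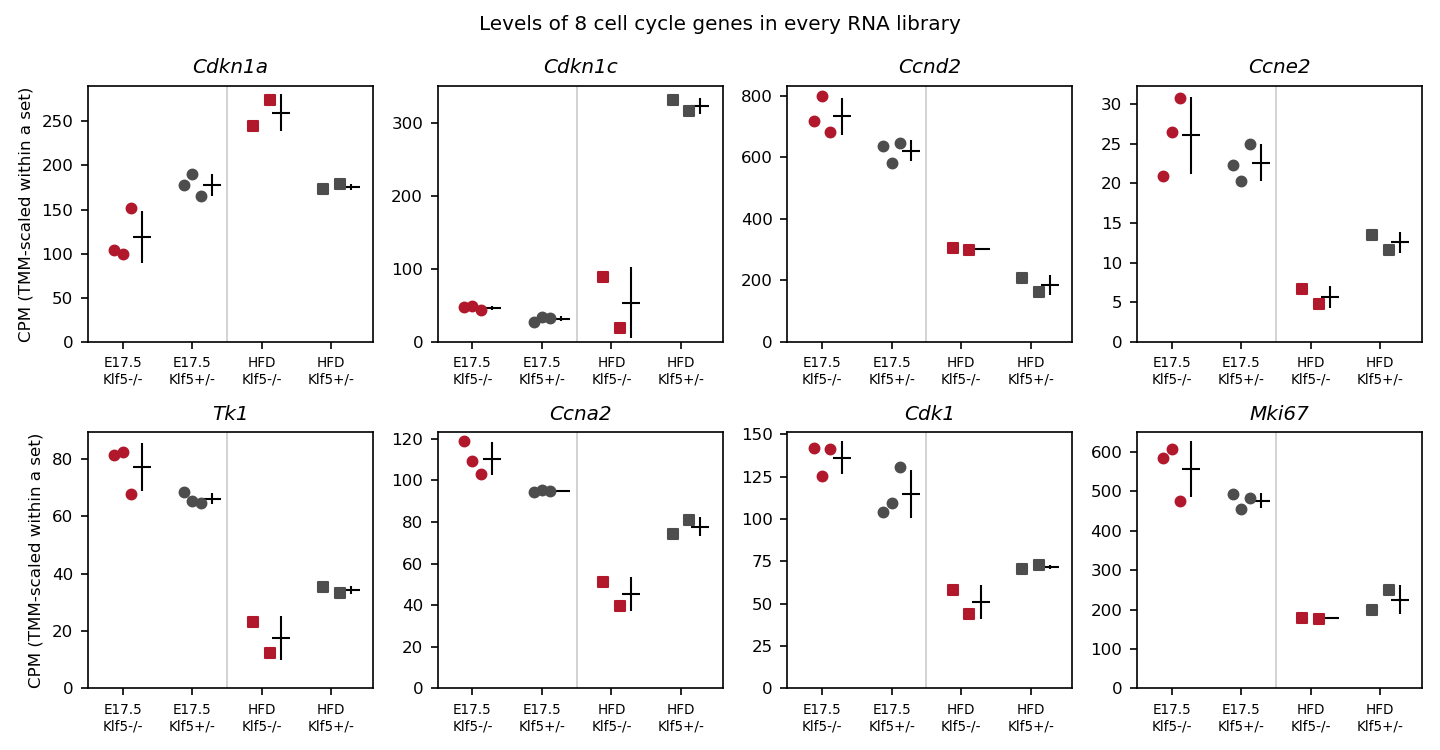
CPM on the y axis, TMM-scaled within each set, of 8 genes in every RNA library; groups on the x axis are libraries labelled Klf5-/- (red) and Klf5+/- (grey) at E17.5 (circles) and in the HFD set (squares), and the cross beside each group is its mean with the SD. Cdkn1a lies lower in the red group at E17.5 and higher in the red group of the HFD set, while the group means of Ccna2, Cdk1 and Mki67 do the reverse.

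In the HFD epidermis most of the 50 genes stood lower in the libraries labelled Klf5-/-. The log2 fold change was below 0 in 45 of 50 genes, with a median of −0.37, where 50.5% of all genes were below 0 and their median was −0.01. None passed edgeR's test, which called 5.5% of all 15848 genes (1.48% higher and 4.02% lower). On library totals 138 genes were higher and 1202 lower over all genes, in place of 235 and 637. At an unadjusted p under 0.05, 15 members were lower (16.4% of all genes) and 2 were higher (10.7% of all genes). DESeq2 called 5 members: Ccnd2 (adjusted p = 0.00811) and Cdkn1a (0.0109) higher, and Ccne2 (0.0110), Ccna2 (0.0127) and Cdkn1c (0.0372) lower, where it called 18.3% of all genes (7.29% higher and 11.0% lower). Both libraries labelled Klf5-/- lay below both Klf5+/- libraries for 35 members and above them for 3, where 32.7% and 27.4% of all genes did. The 3 above were Ccnd2, E2f8 and Cdkn1a.

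The G2/M genes lay closer together than the G1/S genes in this set. All 23 G2/M genes were below 0, with a median of −0.44 and a range of −0.78 to −0.01, and 21 had no overlap. Of the 22 G1/S and replication genes 19 were below 0, with a median of −0.28 and a wider range, −1.14 to 0.41. Of these 22 genes 11 had no overlap below. Over all genes 32.7% lay wholly below. Cdk2, E2f8 and Gins1 were above 0, of which Cdk2 and Gins1 were below 0 on library totals. Within the helicase, Mcm2, Mcm3 and Mcm5 stood at −0.34, −0.47 and −0.46, while Mcm4, Mcm6 and Mcm7 stood at −0.01, −0.06 and −0.06. The summed G2/M level over the summed G1/S and replication level was 1.603 and 1.606 in the libraries labelled Klf5-/-, against 1.739 and 1.798 in Klf5+/- libraries. At E17.5 this ratio was 1.35, 1.34 and 1.28 in libraries labelled Klf5-/-, against 1.22, 1.29 and 1.33 in Klf5+/- libraries, with overlap.

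Ccnd2 was the D cyclin that stood higher in the HFD set. It had 305.0 and 299 CPM in libraries labelled Klf5-/-, against 208 and 163 CPM in Klf5+/- libraries (edgeR log2 fold change 0.70, SE 0.19, adjusted p = 0.0810). Ccnd1 had 95.3 and 64.1 CPM in libraries labelled Klf5-/-, against 133 and 121 CPM in Klf5+/- libraries (−0.67, SE 0.23, edgeR adjusted p = 0.127). The pair thus stood on opposite sides of 0 in both sets, Ccnd2 above and Ccnd1 below.

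Of the cyclin E genes, Ccne2 had 6.68 and 4.73 CPM in HFD libraries labelled Klf5-/-, against 13.5 and 11.6 CPM in Klf5+/- libraries (edgeR log2 fold change −1.14, SE 0.29, adjusted p = 0.0696). Ccne1 had 3.80 and 3.65 CPM in libraries labelled Klf5-/-, against 6.45 and 5.87 CPM in Klf5+/- libraries (−0.73, SE 0.31, edgeR adjusted p = 0.194). E2f1, an activating E2F, had 8.05 and 4.54 CPM in libraries labelled Klf5-/-, against 12.8 and 13.0 CPM in Klf5+/- libraries. In all 3 genes the second library labelled Klf5-/- was the lowest. Mcm3 had 28.2 and 23.4 CPM in libraries labelled Klf5-/-, against 35.0 and 36.5 CPM in Klf5+/- libraries (edgeR adjusted p = 0.183). Tk1 had 23.1 and 12.3 CPM in libraries labelled Klf5-/-, against 35.2 and 33.3 CPM in Klf5+/- libraries (−0.96, SE 0.32, edgeR adjusted p = 0.122). Its 2 libraries labelled Klf5-/- differed from each other by nearly as much as from the Klf5+/- libraries.

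Ccna2 had the lowest adjusted p of the 50 genes in the HFD set, at 51.1 and 39.7 CPM in libraries labelled Klf5-/-, against 74.4 and 81.1 CPM in Klf5+/- libraries (edgeR log2 fold change −0.78, SE 0.19, adjusted p = 0.0662). Cyclin A2 serves both S phase and entry to mitosis. Cdk1 had 58.1 and 43.9 CPM in libraries labelled Klf5-/-, against 70.7 and 72.6 CPM in Klf5+/- libraries (−0.49, SE 0.19, edgeR adjusted p = 0.171). Mki67 had 178 and 177 CPM in libraries labelled Klf5-/-, against 199 and 251 CPM in Klf5+/- libraries (−0.34, SE 0.19, edgeR adjusted p = 0.295). The groups did not overlap in these 3 genes. The 2 G2/M genes that overlapped were Foxm1 and Ube2c. Ube2c encodes a ubiquitin-conjugating enzyme of the anaphase-promoting complex.

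The inhibitors held the widest difference of the HFD set. Cdkn1c had 88.4 and 19.0 CPM in libraries labelled Klf5-/-, against 331 and 316 CPM in Klf5+/- libraries (edgeR log2 fold change −2.59, SE 0.82, adjusted p = 0.154). Both libraries labelled Klf5-/- were far lower, and they differed several-fold from each other. Per kilobase of exon, Cdkn1c stood at 27.9 CPM per kb in libraries labelled Klf5-/- and 168 CPM per kb in Klf5+/- libraries, the highest of the 50 genes in the HFD Klf5+/- group. Cdkn1a had 245 and 274 CPM in libraries labelled Klf5-/-, against 173 and 178 CPM in Klf5+/- libraries (0.56, SE 0.17, edgeR adjusted p = 0.0985). At 117 against 79.3 CPM per kb it was the highest of the 50 genes per length in the HFD libraries labelled Klf5-/-. Cdkn1b averaged 56.1 ± 1.25 CPM in libraries labelled Klf5-/- and 67.1 ± 2.32 CPM in Klf5+/- libraries (SD, n = 2 each; −0.26, SE 0.16, edgeR adjusted p = 0.342).

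Single libraries decided how many members edgeR called in the HFD set. Without the first library labelled Klf5-/- it called 3 higher and 19 lower, where 32.2% of all genes were called (14.5% higher and 17.7% lower). Without the second it called 1 higher (Ccnd2) and 2 lower (Ccne2 and Cdkn1c), where 16.3% of all genes were called (5.65% higher and 10.6% lower). A fit of all 10 libraries, which shares 1 estimate of the spread, called 2 higher and 18 lower in the HFD set, where 21.3% of all genes were called (9.4% higher and 11.9% lower). With the first Klf5+/- library left out, the medians within the HFD set were −0.27 for G1/S and replication genes and −0.43 for G2/M genes. With the second Klf5+/- library left out they were −0.28 and −0.44.

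For a part of the 50 genes the genotype effect differed between the sets. In a fit of all 10 libraries the effect in the HFD set minus that at E17.5 passed edgeR's test for 17 members, where 14.7% of all 17260 genes passed. It was lower for 16 (7.61% of all genes) and higher for 1, Cdkn1a (7.07% of all genes). Over the 50 members 47 differences were below 0, with a median of −0.53, where 50.9% of all genes were below 0 and their median was −0.02. On library totals the median of all genes shifted by −0.30 for this difference and by −0.22 in the HFD set, and the calls over all genes were 569 higher and 2469 lower in place of 1221 and 1313. The sets differ in sorting, handling and library kit as well. They also differ in the HFD of the titles, and no age is given for the HFD samples. What each of these contributes cannot be told apart.

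Of the 16 that were lower, 5 belong to the G1/S and replication genes, 10 to the G2/M genes, and the last is Cdkn1c. Among the first, Ccne2 differed by −1.34 (SE 0.29, edgeR adjusted p = 0.0136), Ccne1 by −1.05 (SE 0.26, edgeR adjusted p = 0.0211) and Tk1 by −1.17 (SE 0.30, edgeR adjusted p = 0.0244). E2f1 and Mcm3 differed by −1.08 and −0.67. Among the G2/M genes Ccna2 differed by −0.99 (SE 0.17, edgeR adjusted p = 0.00614), the lowest adjusted p of the 50. The spindle factor Tpx2 and the kinetochore genes Cenpa and Cenpe differed by −0.76, −0.86 and −0.70. The mitotic regulators Ccnb2, Cdk1, Bub1, Aurka, Kif23 and Kif20a, which serve mitotic entry, the spindle checkpoint, spindle poles and cytokinesis, differed by between −0.76 and −0.65.

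The inhibitors held both the lowest and the highest difference. Cdkn1a, which lay below Klf5+/- libraries at E17.5 and above them in the HFD set, differed by 1.16 (SE 0.24, edgeR adjusted p = 0.0114). Cdkn1c, with the opposite pattern, differed by −3.15 (SE 0.73, edgeR adjusted p = 0.0287). Cdkn1b differed by −0.30 (SE 0.16, edgeR adjusted p = 0.239). Ccna2 and Cdkn1a passed in all 5 other settings of this test and in all 10 fits without 1 library, whereas Cdkn1c did not pass without a low-count filter or in 7 of those 10 fits. The count of 16 rested on single libraries. It was 6 and 9 without the first or second E17.5 library labelled Klf5-/-, and 10 and 3 without the first or second E17.5 Klf5+/- library. For the HFD libraries it was 29 and 6 without the first or second library labelled Klf5-/-, and 3 and 5 without the first or second Klf5+/- library. Over all genes those fits called 604 to 2316 lower. Without the third library of either E17.5 group it was 17 (Klf5-/-) and 12 (Klf5+/-). Each fit without an HFD library leaves 1 library in that group.

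Markers of the epidermal layers and of other cell types also differed between these libraries. At E17.5 the 7 suprabasal keratinocyte markers summed to 31350 to 49662 CPM in libraries labelled Klf5-/-, against 58403 to 73838 CPM in Klf5+/- libraries, and all 7 stood below 0. HFD sums were 49868 and 54436 CPM in libraries labelled Klf5-/-, against 23732 and 24372 CPM in Klf5+/- libraries, and all 7 stood above 0. The third E17.5 library labelled Klf5-/-, lowest of its group for the summed G1/S and G2/M genes, was its highest for these markers. The 7 basal markers summed to 24764 to 29404 CPM in E17.5 libraries labelled Klf5-/-, against 22443 to 26579 CPM in Klf5+/- libraries. HFD sums were 18790 and 20128 CPM in libraries labelled Klf5-/-, against 15400 and 9787 CPM in Klf5+/- libraries.

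**Figure D4:**
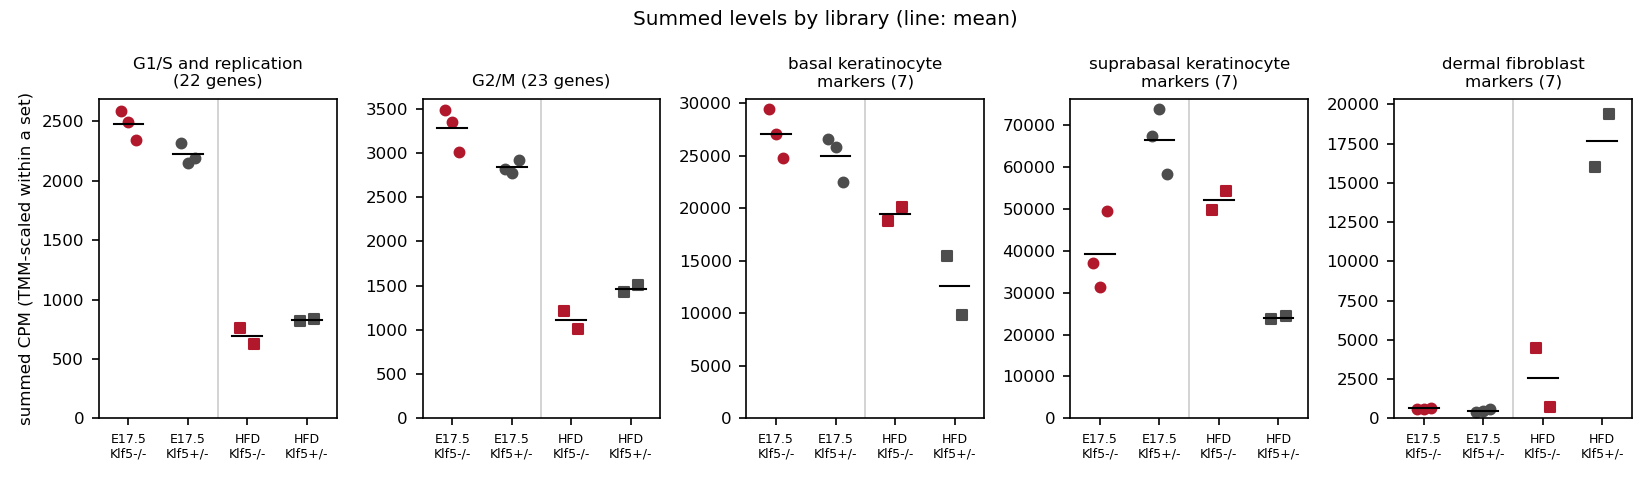
Summed CPM on the y axis, TMM-scaled within each set, of the G1/S and replication genes, the G2/M genes and 3 marker lists (one panel each) in every RNA library; lines are group means, red is labelled Klf5-/- and grey Klf5+/-, circles E17.5 and squares HFD. The G2/M sums lie at 3009 to 3488 (red) and 2776 to 2921 (grey) at E17.5, and at 1007 and 1215 (red) and 1430 and 1503 (grey) in the HFD set, where the suprabasal sums lie the other way round.

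Dermal markers differed still more in the HFD set. The 7 fibroblast markers summed to 4466 and 692 CPM in HFD libraries labelled Klf5-/-, against 15988 and 19398 CPM in Klf5+/- libraries, and all 7 stood below 0. The order of these 2 libraries labelled Klf5-/- was that of Cdkn1c, 88.4 and 19.0 CPM. At E17.5 the fibroblast markers summed to 606 to 683 CPM in libraries labelled Klf5-/-, against 418 to 568 CPM in Klf5+/- libraries, and all 7 stood above 0. Most of that sum was Dcn, and Col1a1 averaged 8.39 CPM in libraries labelled Klf5-/- against 2.28 CPM in Klf5+/- libraries. In the HFD set the 4 endothelial markers summed to 11.1 to 47.2 CPM in libraries labelled Klf5-/-, against 246 to 283 CPM in Klf5+/- libraries. The 4 adipocyte markers summed to 8.70 and 43.9 CPM in HFD libraries labelled Klf5-/-, the second being the higher, against 113 and 200.5 CPM in Klf5+/- libraries. At E17.5 the endothelial markers summed to 1.79 to 2.65 CPM in libraries labelled Klf5-/-, against 0.631 to 1.40 CPM in Klf5+/- libraries. The adipocyte markers summed to 0.0284, 4.42 and 0.801 CPM in E17.5 libraries labelled Klf5-/-, against 0.0216, 0 and 0 CPM in Klf5+/- libraries. The highest sum, in the second library labelled Klf5-/-, came mostly from Adipoq and Plin1, while Lep had 0 counts in all 6 libraries. Sums of blood and hair follicle markers differed as well in the HFD set, while those of skeletal muscle markers overlapped. The 4 skeletal muscle markers summed to 604 and 60.3 CPM in HFD libraries labelled Klf5-/-, against 1941 and 566 CPM in Klf5+/- libraries. All 4 stood below 0, and none passed edgeR's test. The 5 erythroid markers summed to 316 and 407 CPM in HFD libraries labelled Klf5-/-, against 878 and 924 CPM in Klf5+/- libraries. Of these 5 edgeR called 3 lower, where 4.02% of all genes were called lower. At E17.5 the erythroid sums were 259, 723 and 2679 CPM in libraries labelled Klf5-/-, against 15.5, 91.2 and 1089 CPM in Klf5+/- libraries, with overlap. The 7 hair follicle markers summed to 873 and 886 CPM in HFD libraries labelled Klf5-/-, against 1118 and 996 CPM in Klf5+/- libraries. Of these edgeR called 3 lower, where 4.02% of all genes were called lower. They were Krt71 (−3.29, adjusted p = 0.0126), Krt75 (−2.21, adjusted p = 0.0337) and Msx2 (−1.76, adjusted p = 0.0461). The other 4 stood above 0, Sox9 (0.71) and Krt17 (0.14) with no overlap, and Lef1 and Shh with overlap. The median of the 7 was 0.05. Immune markers summed to 54.3 and 37.9 CPM in HFD libraries labelled Klf5-/-, against 77.8 and 69.3 CPM in Klf5+/- libraries. Of the 4 tested, Lyz2 alone stood lower (log2 fold change −1.87, edgeR adjusted p = 0.0393). Ptprc, Cd74 and Cd3e stood above 0. Melanocyte markers summed to 213 and 115 CPM in HFD libraries labelled Klf5-/-, against 178 and 136 CPM in Klf5+/- libraries, with overlap. The part of these layers and cell types in the cell cycle differences was not tested.

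Genes outside the 50 that serve the same phases had medians on the same sides of 0. Of 41 other S-phase genes all were above 0 at E17.5 (median 0.19) and 33 were below 0 in the HFD set (median −0.29). None passed in either set alone. In the difference of the effects 3 of the 41 were lower, a share near the 7.61% of all genes. These were Pold1, the catalytic subunit of polymerase delta, at −1.03 (SE 0.25, edgeR adjusted p = 0.0209), the initiation factor Mcm10 at −1.05 and the origin recognition gene Orc6 at −0.64. Of 49 other G2/M genes 46 were above 0 at E17.5 (median 0.19) and 43 were below 0 in the HFD set (median −0.32), and 9 of the 49 were lower in the difference, where 7.61% of all genes were. The 4 with the lowest adjusted p were Cdca3 at −0.82, Cep55 at −0.78, the kinesin gene Kif2c at −0.75 and the centrosomal kinase gene Nek2 at −0.72. Among S-phase genes the lowest adjusted p at E17.5 was that of the clamp loader gene Rfc3 (log2 fold change 0.25), and in the HFD set the lowest were those of Pold1 (−0.86, edgeR adjusted p = 0.0740) and Orc6 (−0.52). Among G2/M genes they were at E17.5 those of the cytokinesis gene Anln (0.35, edgeR adjusted p = 0.130) and Ckap2l (0.24), and in the HFD set those of Cdca3 (−0.60) and Depdc1a (−1.04).

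Of 18 genes that respond to p53, the classic inducer of Cdkn1a, 14 were below 0 at E17.5 (median −0.12), where 47.3% of all genes were, and 11 were above 0 in the HFD set (median 0.27), where 49.5% were, with none past the test in either. The lowest adjusted p were at E17.5 those of Perp (log2 fold change −0.35) and Aen (−0.23), and in the HFD set those of Aen (1.20) and Fas. In the difference of the effects 5 of the 18 were higher and none lower, where 7.07% of all genes were higher and 7.61% lower. Aen, an apoptosis-linked nuclease, differed by 1.44 (SE 0.27, edgeR adjusted p = 0.00778). Perp, whose protein also sits in desmosomes, differed by 1.19, Ei24 by 0.82 and the growth arrest gene Gadd45a by 0.95. The death receptor gene Fas stood the other way, at −0.89 in the HFD set, with 7.97 ± 0.313 CPM in libraries labelled Klf5-/- and 14.8 ± 1.46 CPM in Klf5+/- libraries (SD, n = 2 each).

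Of 14 genes of pocket proteins, INK4 inhibitors and quiescence, 13 were tested. In the difference 1 was higher and 1 lower, shares near the 7.07% and 7.61% of all genes. The INK4 inhibitor gene Cdkn2b was higher in the difference, at 1.57 (SE 0.39, edgeR adjusted p = 0.0232), with 14.8 ± 2.95 CPM in HFD libraries labelled Klf5-/- and 6.96 ± 0.545 CPM in Klf5+/- libraries (SD, n = 2 each). Its relative Cdkn2c was lower, at −0.85 (SE 0.25, edgeR adjusted p = 0.0461). Rb1, the retinoblastoma gene, stood at −0.32 at E17.5 (SE 0.10, edgeR adjusted p = 0.249) and its relative Rbl1 at 0.20. Among 9 other G1 cyclins, kinases and growth inputs, 1 was higher in the difference, where 7.07% of all genes were. It was Myc, at 0.78 (SE 0.23, edgeR adjusted p = 0.0465). None of the 9 passed the test in either set alone. The lowest adjusted p of that list were at E17.5 those of Skp2 (log2 fold change 0.22) and Ccnd3 (0.17), and in the HFD set those of Myc (0.75) and Cdk6 (0.94).

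The log2 fold changes of members with and without a KLF5 peak near the start are given side by side. At E17.5 the median log2 fold change was 0.19 for the 20 members with a peak and 0.19 for the 30 without. In the HFD set it was −0.27 with a peak and −0.45 without, and in the difference −0.45 with a peak and −0.57 without. Over all genes the HFD median was 0.10 with a peak and 0.00 without, and the median of the difference was 0.12 with a peak and −0.0019 without. These are descriptions, and whether the groups differ was not tested. Cdkn1a and Cdkn1c, which took opposite sides, both had a peak, and of the 16 members that were lower in the difference E2f1, Tk1, Ccna2, Cdk1, Kif23 and Cdkn1c had one.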

How the data were processed

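RNA was measured in 10 mouse libraries and chromatin in 1 sample each of KLF5 ChIP-seq, H3K27ac ChIP-seq and ATAC-seq from E17.5 epithelium. The authors deposited raw read counts per gene. The tools named, without roles, per the submitters' processing notes are STAR 2.6.0b, HTSeq, Bowtie 1.0.1, Bowtie2 2.2.3 and MACS2, with mm10 (GRCm38) as the mouse build. The sources used here do not give the strand setting, and overlapping or antisense genes may share reads. The RPKM values that the authors deposited beside the HFD counts were not used. Reads naming no gene, 13.5 to 16.9% (E17.5) or 13.4 to 16.5% (HFD) of a library, stayed out of library sizes. At these depths 3 counts were worth 0.0646 to 0.0943 CPM.

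The deposited peak lists, 1 for each sample, give each peak a fold enrichment (a ratio), a −log10 q value and a score, in the columns of a MACS2 peak file. The score was not used, and the sources used here name neither the calling control nor the threshold. HaCaT peaks and an IgG sample were not analysed here.

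Counts were tested with edgeR 4.0.16 in R 4.3.3 (TMM, filterByExpr, robust quasi-likelihood, Benjamini-Hochberg over all genes, threshold 0.05), each set alone. The difference of effects came from 1 model over the 10 libraries, as a contrast. The SE is the log2 fold change divided by the square root of F. Level deciles used the mean CPM of E17.5 Klf5+/- libraries. DESeq2 1.42.0, library totals, other filters, a replicate block and each library left out in turn were alternatives. The fits were tested on simulated data. Peaks and promoters were read with Python 3.11.15, and RefSeq promoters matched 37 of 50 genes by symbol. A level is in CPM, scaled within a set, so levels are not on 1 scale across sets.

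Members and gene lists were chosen with earlier results of these data known. All members could be named; the text gives per library the member of each class with the largest change in each set, and of each other list up to 4 genes past the test, or the 2 with the lowest p where none passed. The value of 1 gene that this rule names is not reported here.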

Additional observations from a re-analysis of the deposited data

Results flagged for a closer look

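The genotype effect (libraries labelled Klf5-/- over Klf5+/- libraries, log2) differed between the HFD set and the E17.5 set for 17 of the 50 genes. The call was by edgeR's test of the difference itself, at an adjusted p under 0.05, which 14.7% of all 17260 genes passed. The value was the effect in the HFD set minus that at E17.5. It was higher for Cdkn1a alone, at 1.16, and lower for the others. Of all genes 7.07% were called higher and 7.61% lower. Among G1/S and replication genes it was −1.05 for Ccne1, −1.34 for Ccne2, −1.08 for E2f1, −0.67 for Mcm3 and −1.17 for Tk1. Among G2/M genes it was −0.99 for Ccna2, −0.76 for Ccnb2, −0.73 for Cdk1, −0.72 for Bub1 and −0.65 for Aurka. It was −0.76 for Tpx2, −0.65 for Kif23, −0.66 for Kif20a, −0.86 for Cenpa and −0.70 for Cenpe. The inhibitor gene Cdkn1c had the value farthest from 0, −3.15. The RNA sets also differ in sorting, handling, library kit and the HFD of the titles, and no age is given for the HFD samples. The part of each in these differences was not tested.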

How the results depend on the processing

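Calls depended on single libraries and settings. At E17.5 edgeR called 5 genes higher and 8 lower. With DESeq2 these were 125 and 336, on library totals 4 and 2, with no filter 47 and 190, with a minimum mean of 1 CPM 1 and 1, and in a fit of all 10 libraries 2 and 1. Of the 50 members DESeq2 called 1 higher and 1 lower and the fit with no filter 1 higher. On library totals the E17.5 median of the G2/M members was 0.28. Leaving out 1 library gave 0 to 130 genes higher, 0 to 383 lower, and 0 to 1 members in each direction. The class medians then ranged from 0.13 to 0.21 for G1/S and replication and from 0.17 to 0.26 for G2/M. In the HFD set DESeq2 called 1156 genes higher and 1750 lower, against 235 and 637 in edgeR. Library totals gave 138 and 1202, no filter 884 and 1512, and the fit of all 10 libraries 1623 and 2049. HFD members called were 2 higher and 3 lower with DESeq2, 2 lower on library totals, 1 and 5 with no filter, 0 with a minimum of 1 CPM, and 2 and 18 in the fit of all 10 libraries. On library totals the HFD medians were −0.51 for G1/S and replication and −0.67 for G2/M. Leaving out 1 library gave 2 to 2424 genes higher and 17 to 2965 lower, 0 to 3 members higher and 0 to 19 lower, and medians of −0.40 to −0.10 and −0.54 to −0.29. In the difference of effects, library totals called 569 genes higher and 2469 lower and 35 members lower, with medians of −0.72 and −0.95. Leaving out 1 library gave 602 to 2151 genes higher, 604 to 2316 lower and 3 to 29 members lower, with medians of −0.61 to −0.28 and −0.72 to −0.52.

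Whether replicate numbers pair the samples could not be decided with so few libraries. Same-numbered E17.5 libraries correlated at 0.03, −0.10 and 0.18 in their deviations. The HFD set has only 2 pairs, at 0.18, where deviations from a mean of 2 libraries mirror each other. With a replicate block edgeR called 10 genes higher and 32 lower at E17.5. In the HFD set it called 658 genes higher and 862 lower, with 1 member higher (Ccnd2) and 1 lower (Ccna2). In the difference the block called 1 member higher and 19 lower, where it called 1246 higher and 1286 lower of all 17260 genes. In the HFD set, signs turned with DESeq2 for Mcm4 (0.023), Cdt1 (0.013) and Foxm1 (0.016). With DESeq2 the median of all genes shifted by 0.029 in that set. In the fit of all 10 libraries the sign turned for Mcm4 (0.0025), and the cause of these turns was not tested. On library totals they turned for Cdk2 (−0.11) and Gins1 (−0.15), and in the difference for E2f8 (−0.076). That scaling moves the median of all genes by −0.22 in the HFD set and −0.30 in the difference, about as far as it moved these 3 genes. With 1 library left out, signs turned at E17.5 for E2f1 (−0.030 to 0.18), Mybl2 (−0.018 to 0.31), Cdt1 (−0.0078 to 0.21) and Cdkn1b (−0.0068 to 0.13). They turned in the HFD set for Mcm4 (−0.11 to 0.11), Cdc6 (−0.32 to 0.086), Gins1 (−0.041 to 0.23), Foxm1 (−0.16 to 0.16), Mcm6 (−0.086 to 0.00083), Mcm7 (−0.13 to 0.056), Cdt1 (−0.23 to 0.24), Gmnn (−0.39 to 0.028), Rrm2 (−0.41 to 0.10) and Tyms (−1.09 to 0.033). They turned in the difference for Cdk2 (−0.15 to 0.10), E2f8 (−0.049 to 0.46), Cdt1 (−0.34 to 0.18) and Gins1 (−0.18 to 0.079). With peaks of a −log10 q of at least 10, 56% of members had an H3K27ac peak, 4% a KLF5 peak and 82% an ATAC peak, and within 10 kb 100% had an ATAC peak. Of the members, Ccna2 and Cdkn1a were called in the difference in every setting and leave-out run.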
